A study of Mus musculus with 4 samples.

Results

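The genes described here are 10 genes of the cardiac and skeletal sarcomere: Actc1, Tnnt2, Tnnc1, Myl4, Myl7, Ldb3, Xirp1, Nebl, Ttn and Smyd1. They were taken as a fixed list of names, and each was found once among the 32286 features of the deposited tables. They were followed in single cells of mouse popliteal vessels, where the muscle is smooth muscle of the vessel wall. RNA molecules were counted by unique molecular identifiers (UMIs) in a droplet assay that reads transcripts from the 3′ end. All libraries came from adult mice of a cross between WT1GFPCre [Wt1tm1(EGFP/cre)Wtp/J] and Ai9-tdT, in which a Cre recombinase expressed from the Wt1 locus switches on the red protein tdTomato, and Evans blue dye was injected into the footpad to show the vessels. PLV replicate 1 and PLV replicate 2 held popliteal lymphatic vessels (PLV), each pooled from 2 mice and digested for 30 minutes with collagenase I, Dispase II, DNAse and Liberase. The third library, called the mixed library here, held PLV cells and cells of blood vessels (BV) from 1 pool of 2 mice, digested for 60 minutes with collagenase I and Dispase II. Its hashtag antibodies were not used to split the vessels, so it is 1 sample of both.

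A sarcomere is built from thin filaments of actin that carry the troponin complex, thick filaments of myosin with their light chains, and the Z-discs and titin springs that hold them in register. Smooth muscle makes force from actin and myosin without sarcomeres and without troponin. Lymphatic collecting vessels are known for phasic contractions, and for this reason their muscle is often compared with the heart.

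After filtering, PLV replicate 1 kept 1909 cells, PLV replicate 2 kept 516 and the mixed library 994, with 9577642, 3390010 and 7770796 UMIs and no cell barcode in common. Cells were clustered within each library without the 10 genes or any other list used here, and clusters were called muscle-like, pericyte-like and so on from marker genes. There were 417, 107 and 313 muscle-like cells; values given in threes follow this order of libraries throughout. They fell into kinds that were told apart by a pair of genes each, a rule chosen after the clusters had been seen. Kind A, with Ano1 and Hmcn2, held 136, 54 and 196 cells. Kind B, with Pln and Sorbs2, held 281, 53 and 43 cells. Kind C, with P2rx1 and Col12a1, held 74 cells and was found in the mixed library alone. Levels below are UMIs of a gene as CPM, the usual scaling of a count to the total UMIs of the same cells in the same library, with 95% exact Poisson intervals that cover counting error only. Where a group had no UMI, folds given as at least use a limit of 3 UMIs in it. These folds leave out the counting error of the higher group, so they are no confidence limits.

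The promoter windows of 4 of the genes are shown because they hold letters known as binding motifs of muscle gene regulators and because these genes differed in the cells that held their RNA. Each window is the 250 bases before a RefSeq transcription start (build GRCm38.p6), read 5′ to 3′ on the strand of the gene, with matches in capitals. The motifs are the CArG box, known to be bound by serum response factor in smooth and striated muscle, and the MCAT element CATTCC, known to be bound by TEAD factors. Both strands were searched. The windows lie at chr2:114052876-114053125 (minus strand) for Actc1, chr1:135836084-135836333 (plus strand) for Tnnt2, chr11:5898783-5899032 (minus strand) for Myl7 and chr14:34588682-34588931 (minus strand) for Ldb3.
Actc1: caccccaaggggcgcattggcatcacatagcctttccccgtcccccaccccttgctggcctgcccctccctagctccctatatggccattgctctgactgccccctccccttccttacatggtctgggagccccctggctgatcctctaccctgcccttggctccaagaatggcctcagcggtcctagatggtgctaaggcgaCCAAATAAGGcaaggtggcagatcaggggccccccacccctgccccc
Tnnt2: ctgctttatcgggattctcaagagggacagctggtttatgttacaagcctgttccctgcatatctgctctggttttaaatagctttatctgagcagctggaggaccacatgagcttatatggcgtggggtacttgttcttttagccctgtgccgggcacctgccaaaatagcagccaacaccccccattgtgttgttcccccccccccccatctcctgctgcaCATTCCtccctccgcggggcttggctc
Myl7: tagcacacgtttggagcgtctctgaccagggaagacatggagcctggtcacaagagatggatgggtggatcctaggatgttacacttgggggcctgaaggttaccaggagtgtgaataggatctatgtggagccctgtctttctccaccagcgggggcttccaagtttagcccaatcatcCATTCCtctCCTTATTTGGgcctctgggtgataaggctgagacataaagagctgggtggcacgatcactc
Ldb3: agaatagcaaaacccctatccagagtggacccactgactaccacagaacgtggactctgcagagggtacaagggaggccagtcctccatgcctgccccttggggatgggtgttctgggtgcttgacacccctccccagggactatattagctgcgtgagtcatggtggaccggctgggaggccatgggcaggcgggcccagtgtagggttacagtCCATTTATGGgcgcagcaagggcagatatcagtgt

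Between the end of the CArG box and the start lay 37 bases in Actc1, 51 in Myl7 and 25 in the Ldb3 window shown, and Myl7 also held an MCAT element with 64 bases between its end and the start. The window of Tnnt2 shown held no CArG box and had an MCAT element with 21 bases between its end and the start. Tnnt2 and Ldb3 each had 2 windows, of which window 1 is shown. The other window of Tnnt2 held neither motif, and that of Ldb3 overlaps the one shown and holds the same CArG box, with 99 bases between its end and that start. Among 9 of the 10 genes with a window, Nebl also held a CArG box, in 1 of its 4 windows, and Nebl and Tnnc1 held an MCAT element. Over all 32851 windows of 27025 genes, 1.47% held a CArG box and 12.6% an MCAT element. In the GENCODE M21 annotation of GRCm38, Actc1 spans chr2:114047282-114053548, so that its window lies in an intron of the longer transcript and overlaps the first bases of exon 1 of the other. Tnnt2 spans chr1:135836354-135852260, Myl7 chr11:5896637-5898782, Ldb3 chr14:34526603-34588682, Myl4 chr11:104550663-104595753 and Xirp1 chr9:120013755-120023598, where it overlaps Cx3cr1 on the same strand. A match of letters is a description and not a site shown to be bound.

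The label of sarcomere genes in vessel muscle held for some of the 10 and not for others. Of all UMIs in the 3 libraries, muscle-like cells held 306 of 315 for Actc1 (97.1%), 34 of 35 for Myl7 (97.1%), 93.1% of 884 for Ldb3, 379 of 409 for Xirp1 (92.7%) and 69 of 77 for Tnnt2 (89.6%). They held 107 of 190 for Myl4 (56.3%) and 12 of 32 for Ttn (37.5%). For these genes the libraries differed, with shares of 41.7%, 42.1% and 73.6% for Myl4 and 6.25%, 0% and 91.7% for Ttn. Over all genes, muscle-like cells held 5410214 of 20738448 UMIs. By library this was 2180373 of 9577642, 780508 of 3390010 and 2449333 of 7770796. Over the 3 libraries Myl4 and Ttn lay above the share of all genes, while Ttn lay below it in both PLV libraries. Nebl had 71 UMIs, none of them in muscle-like cells. Tnnc1 had 8 UMIs in all, and Smyd1 had none, which allows levels of up to 0.313, 0.885 and 0.386 CPM over all kept cells.

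**Figure D1:**
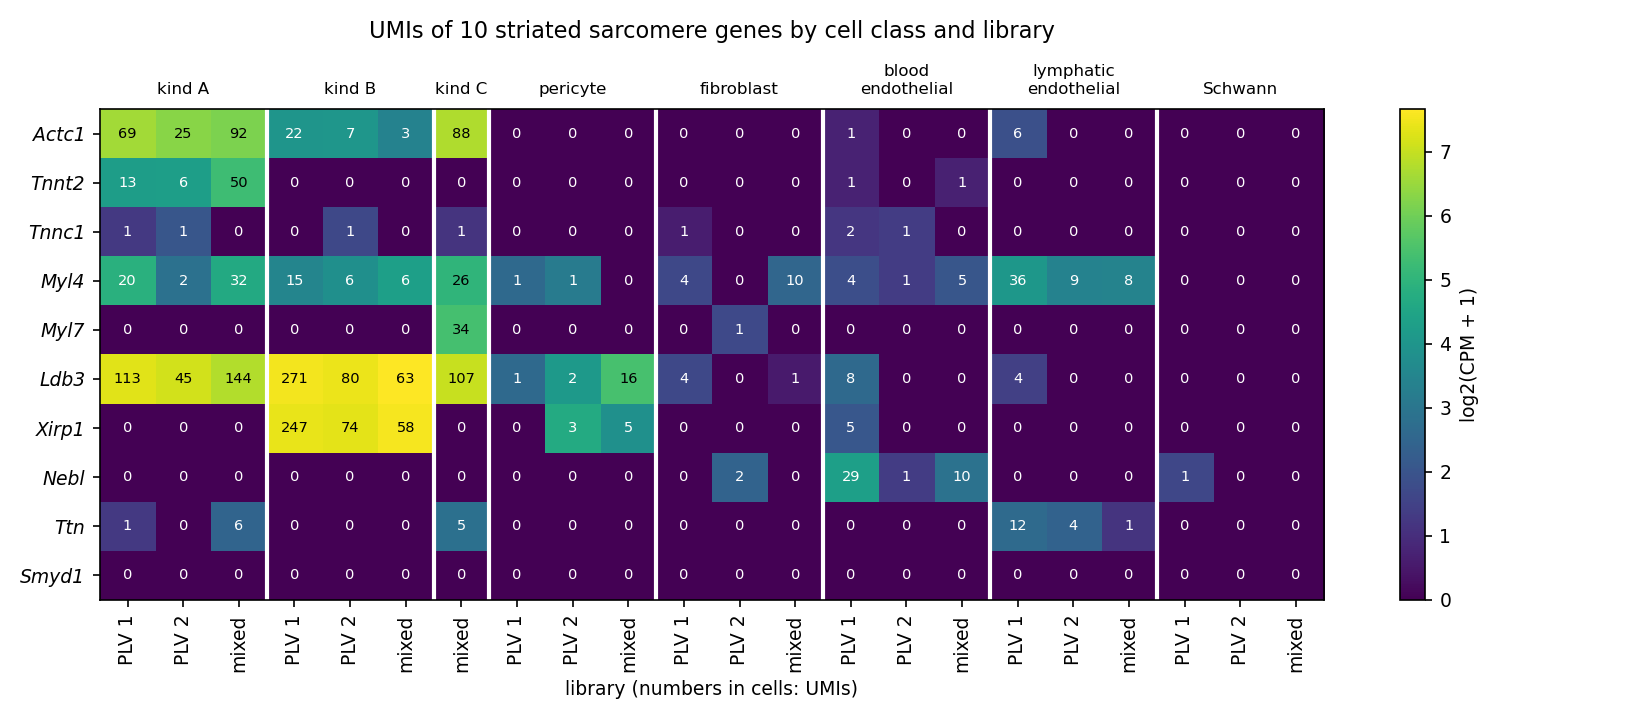
Level of each of the 10 genes (colour, log2 of CPM + 1) by cell class and library, with the number of UMIs printed in each field; columns are class and library, rows are genes. Actc1, Ldb3 and Xirp1 stand out in the muscle-like columns, Nebl has its highest count (29 UMIs) in blood endothelial-like cells of PLV replicate 1, and the row of Smyd1 is empty.

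Among the thin filament genes, Actc1, which encodes cardiac alpha-actin, was found at 41.7, 41.0 and 74.7 CPM in muscle-like cells of the 3 libraries. It had 0 UMIs in pericyte-like, fibroblast-like and Schwann-like cells of every library, and 7 UMIs in the endothelial-like cells of all libraries together. The 0 in pericyte-like cells allows up to 15.4, 24.5 and 7.997 CPM there. The level in muscle-like cells was 2.71-fold, 1.67-fold and 9.34-fold these limits, without the counting error of the muscle-like counts. Tnnt2, the cardiac troponin T that anchors troponin to the thin filament, had 13, 6 and 50 UMIs in muscle-like cells and 3, 1 and 4 UMIs in all other kept cells. Tnnc1, the calcium-binding troponin C, had 4 UMIs in muscle-like cells, of which 1, 2 and 1 were in the 3 libraries. Actc1 is closely related to the smooth muscle actin genes Acta2 and Actg2, and whether UMIs were exchanged between them cannot be read from a table of counts. Pericyte-like cells had 2629, 2371 and 4193 CPM of Acta2, 20.5, 0 and 2.67 CPM of Actg2 and 0 UMIs of Actc1. That 0 allows up to 15.4, 24.5 and 7.997 CPM of Actc1, and an exchange of UMIs was not tested.

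Of the thick filament genes, Myl4, the essential light chain of atrial myosin, was at 16.1, 10.2 and 26.1 CPM in muscle-like cells. It was also at 15.8 (11.03 to 21.8), 9.62 and 9.66 CPM in lymphatic endothelial-like cells, close to the muscle-like level in both PLV libraries. Fibroblast-like cells had 4, 0 and 10 UMIs of Myl4. Myl7, the regulatory light chain of atrial myosin, was found in kind C only among muscle-like cells, with 34 UMIs, and 1 further UMI lay in a fibroblast-like cell of PLV replicate 2.

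Among the genes of the Z-disc, Ldb3, a PDZ and LIM domain protein that ties alpha-actinin to the disc, was at 176.1, 160.2 and 128.2 CPM in muscle-like cells. Its level in pericyte-like cells was 5.13, 16.4 and 42.7 CPM, from 1, 2 and 16 UMIs. Xirp1, an actin-binding repeat protein of the intercalated disc and of the ends of muscle fibres, was at 113.3, 94.8 and 23.7 CPM in muscle-like cells and had 0, 3 and 5 UMIs in pericyte-like cells. It had no UMI in the named immune cells of PLV replicate 1 or the mixed library, although it overlaps Cx3cr1, a gene of immune cells. In PLV replicate 1 a cluster of 104 keratinocyte-like cells, which also carried pericyte markers, held 17 UMIs of Xirp1 and 15 of Ldb3. Nebl, whose product nebulette links thin filaments to the cardiac Z-disc, had 0 UMIs in muscle-like cells, which allows up to 1.38, 3.84 and 1.22 CPM. It was found in blood endothelial-like cells, at 18.9 CPM (12.6 to 27.1) in 15 of 295 cells of PLV replicate 1, at 1 UMI in PLV replicate 2 and at 6.35 CPM in 8 cells of the mixed library. In PLV replicate 1, 15 perineurial-like cells held 8 UMIs of Nebl (76.1 CPM) and the keratinocyte-like cluster 7 (20.8 CPM). Both levels lay above the 18.9 CPM of blood endothelial-like cells, the second within its interval. Immune cells of PLV replicate 1 held 7. Immune cells of the mixed library held 4.

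Ttn, the spring that spans the sarcomere, had 1, 0 and 11 UMIs in muscle-like cells. The 11 of the mixed library lay in 7 of 313 cells. Lymphatic endothelial-like cells held 12, 4 and 1 of its UMIs, at 5.25, 4.28 and 1.21 CPM. These 12 lay in 5 of 192 cells, with 83.3% of them in 3 cells. The 4 of PLV replicate 2 lay in 3 cells, and the 1 of the mixed library in a cell of 112086 UMIs. The filter on low counts left Ttn out of the tests between the classes reported here. Smyd1, a methyltransferase needed for the assembly of myosin into sarcomeres, was the member without a single UMI.

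In the comparison of muscle-like cells with the mean of fibroblast-like, pericyte-like, blood endothelial-like, lymphatic endothelial-like and Schwann-like cells, 4 of the 10 genes had enough UMIs to be tested, and all 4 were higher in muscle-like cells (edgeR quasi-likelihood test on UMI sums, library as a block, Benjamini-Hochberg adjusted p under 0.05). Over all 10494 genes tested, 20.5% were higher in muscle-like cells. The log2 fold change was 7.77 (SE 0.52, adjusted p = 4.78e-08) for Actc1, 7.28 (SE 0.51, adjusted p = 7.87e-08) for Xirp1, 6.69 (SE 0.39, adjusted p = 4.17e-10) for Ldb3 and 3.15 (SE 0.49, adjusted p = 5.73e-05) for Myl4 (edgeR). These genes reached the test mainly through their UMIs in muscle-like cells, so the count of 4 of 4 is a description. Actc1 had 0 UMIs in fibroblast-like, pericyte-like and Schwann-like cells, and Xirp1 had 0 in fibroblast-like, lymphatic endothelial-like and Schwann-like cells. Ldb3 and Myl4 had 0 in Schwann-like cells. The fitted values of all 4 genes rest in part on these 0 counts and are no bounds. The ratio of Myl4 between muscle-like and lymphatic endothelial-like cells was 1.02 (0.621 to 1.67), 1.07 (0.358 to 3.11) and 2.71 (1.29 to 6.54) in the 3 libraries. With DESeq2 the calls of Actc1 and Xirp1 were lost (adjusted p = 0.164 and 0.122), at log2 fold changes of 6.93 and 6.56, while 35.5% of all genes were called. At a clustering resolution of 0.5 the call of Xirp1 was lost (log2 fold change 4.22, adjusted p = 0.0993 by edgeR).

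Pericytes are the other mural cells of vessels. Against pericyte-like cells alone the same 4 genes were higher in muscle-like cells by edgeR, where 6.99% of all genes tested were. The log2 fold change was 2.71 (SE 0.52, adjusted p = 0.00175) for Ldb3, 2.55 (SE 0.65, adjusted p = 0.0196) for Xirp1, 2.85 (SE 0.87, adjusted p = 0.0403) for Myl4 and 8.95 (SE 1.40, adjusted p = 0.000874) for Actc1 (edgeR), and the last rests on 0 UMIs in pericyte-like cells and is no bound. Within libraries the ratio of Ldb3 between muscle-like and pericyte-like cells was 34.3 (6.12 to 1358), 9.79 (2.66 to 81.8) and 3.01 (1.82 to 5.32), so the libraries did not have the same gap. For Xirp1 it was at least 7.35 in PLV replicate 1, 3.87 in PLV replicate 2 and 1.78 (0.719 to 5.68) in the mixed library, where the interval includes no difference. This comparison depended on the processing. DESeq2 called 0 of the 4 genes, with 1 at an unadjusted p under 0.05 and 11.6% of all genes called. Leaving out PLV replicate 1 left 2 calls of 3 members tested by edgeR, with 678 of all 10146 genes called. Leaving out PLV replicate 2 or the mixed library left 1 and 3 calls of 4, with 573 of 11892 and 1233 of 10473 genes called. With all libraries edgeR called 1292 of 10494 genes.

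Within muscle, the members differed between the kinds. Actc1 was high in kinds A and C, Tnnt2 was found in kind A alone, Xirp1 in kind B alone, and Ldb3 in every kind. The kinds were clustered in the same cells by other genes, so the tests below compare members between groups that were already known to differ.

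Xirp1 had 247, 74 and 58 UMIs in kind B, at 168.5 (148.1 to 190.8), 160.5 (126.1 to 201.5) and 185.8 CPM (141.1 to 240.2). It had 0 UMIs in kind A of every library and 0 in kind C. The 3 libraries gave one level in kind B within counting error, and kinds A and B did not overlap. With 3 counts per library as the limit in kind A, Xirp1 was at least 40.1-fold, 17.1-fold and 81.2-fold higher in kind B than in kind A, and at least 51.2-fold higher than in kind C. Pericyte-like cells lay far below kind B too, by at least 10.9-fold in PLV replicate 1, 6.55-fold (2.15 to 32.5) in PLV replicate 2 and 13.9-fold (5.64 to 44.5) in the mixed library.

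Actc1 had 69, 25 and 92 UMIs in kind A, at 96.6 (75.2 to 122.3), 78.2 (50.6 to 115.5) and 70.2 CPM (56.6 to 86.1). In kind B it had 22, 7 and 3 UMIs, at 15.005 (9.40 to 22.7), 15.2 (6.11 to 31.3) and 9.61 CPM (1.98 to 28.1). Every library of kind A lay above every library of kind B, with ratios of 6.44 (3.94 to 10.9), 5.15 (2.17 to 14.1) and 7.30 (2.42 to 36.1). Kind C, at 106.5 CPM (85.4 to 131.2), was 1.52-fold (1.12 to 2.05) above kind A of the same library, but 51 of its 88 UMIs came from 2 cells. Without those 2 cells 37 UMIs remain in kind C, a level below that of kind A, so this direction rests on them. The log2 fold change of kind B against kind A was -2.47 (SE 0.28, adjusted p = 7.26e-09 by edgeR). Actg2, the smooth muscle gamma-actin, ran alongside, at 1187, 907 and 1176 CPM in kind A, 121, 97.6 and 227 CPM in kind B and 2031 CPM in kind C, and its part in the counts of Actc1 was not tested.

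Tnnt2 had 13, 6 and 50 UMIs in kind A, at 18.2 (9.69 to 31.1), 18.8 (6.89 to 40.9) and 38.1 CPM (28.3 to 50.3). It had 0 UMIs in kind B of every library, which allows up to 2.05, 6.51 and 9.61 CPM, and 0 in kind C. The level of Tnnt2 in kind A was 8.90-fold, 2.88-fold and 3.97-fold these limits of kind B, and 10.5-fold the limit of kind C. These folds leave out the counting error of the few UMIs in kind A. Kinds A and C, both with Actc1, thus differed in Tnnt2.

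Ldb3 had 113, 45 and 144 UMIs in kind A, at 158.2 (130.4 to 190.2), 140.8 (102.7 to 188.4) and 109.9 CPM (92.6 to 129.3). In kind B it was at 184.8 (163.5 to 208.2), 173.6 (137.6 to 216.0) and 201.9 CPM (155.1 to 258.3), and in kind C at 129.5 CPM (106.1 to 156.5). Kind B lay above kind A in each library, by 1.17-fold (0.935 to 1.47), 1.23-fold (0.845 to 1.82) and 1.84-fold (1.34 to 2.49), and the interval excluded 1 in the mixed library only. The log2 fold change was 0.61 (SE 0.17, adjusted p = 0.00557 by edgeR). It did not pass without the mixed library (0.42, adjusted p = 0.0801 by edgeR), with DESeq2 (adjusted p = 0.140) or without the library as a block (adjusted p = 0.06997 by edgeR).

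Myl4 had 20, 2 and 32 UMIs in kind A, at 28.0 (17.1 to 43.3), 6.26 and 24.4 CPM (16.7 to 34.5), and 15, 6 and 6 UMIs in kind B, at 10.2, 13.0 and 19.2 CPM. Kind A was higher in PLV replicate 1, by 2.74-fold (1.33 to 5.75), whereas kind B was higher in PLV replicate 2, by 2.08-fold (0.372 to 21.1). The kinds did not differ past the threshold (log2 fold change -0.58, SE 0.45, adjusted p = 0.364 by edgeR). Kind C had 26 UMIs, at 31.5 CPM (20.6 to 46.1).

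Of the 5 members with enough UMIs for this comparison, 2 were higher and 2 lower in kind B. Over all 7063 genes tested, 16.5% were higher and 15.8% lower in kind B, and 32.4% were called in either direction. Xirp1 and Tnnt2 passed the filter through the only kind that held them, so the count of 4 of 5 is a description and nothing is read from it.

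**Figure D2:**
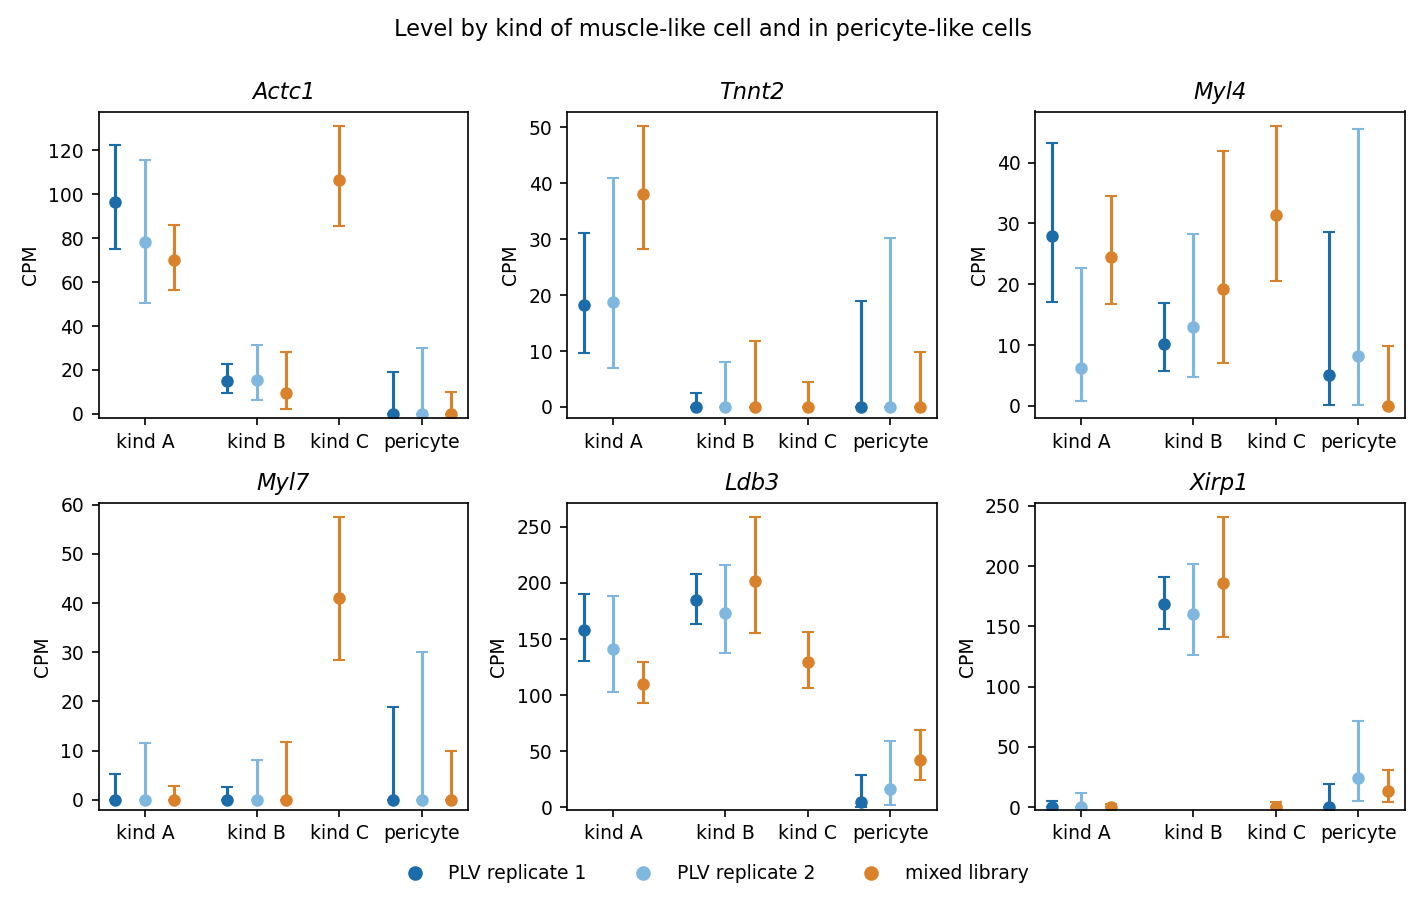
Level (CPM, vertical axis) of Actc1, Tnnt2, Myl4, Myl7, Ldb3 and Xirp1 in muscle kinds A, B and C and in pericyte-like cells (horizontal axis); each point is 1 library and bars are 95% exact Poisson intervals of its count. Actc1 is at 70.2 to 96.6 CPM in kind A and at most 15.2 CPM in kind B, Xirp1 is at 160.5 CPM or more in kind B and at 0 in kinds A and C, and Ldb3 is above 100 CPM in all 3 kinds.

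How the RNA was spread over cells differed between the members. Ldb3 was spread widely: a UMI was seen in 51.5%, 46.3% and 48.5% of kind A cells, in 55.5%, 52.8% and 72.1% of kind B cells and in 71.6% of kind C cells, and the highest cell held 8 UMIs. Xirp1 was seen in 50.5%, 73.6% and 67.4% of kind B cells. Actc1 was seen in 24.3%, 22.2% and 14.8% of kind A cells, in 3.20%, 11.3% and 4.65% of kind B cells and in 31.1% of kind C cells. In kind A of the mixed library its 92 UMIs lay in 29 cells with a median of 3 each, while in PLV replicate 1 the 69 UMIs lay in 33 cells with a median of 1. Tnnt2 was seen in 6.62%, 7.41% and 16.3% of kind A cells.

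The cells were also compared at equal depth. After each cell was thinned to 1500 UMIs, Ldb3 was seen in 18.1%, 10.2% and 13.4% of kind A cells, in 25.8%, 18.9% and 27.9% of kind B cells and in 13.5% of kind C cells, whose median depth of 10117 UMIs was well above that of the other kinds. Xirp1 was seen in 20.0%, 20.8% and 30.2% of thinned kind B cells, and Actc1 in 9.02%, 6.12% and 6.42% of thinned kind A cells and 9.46% of thinned kind C cells.

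Droplets without a cell give a scale for low levels. In the mixed library the droplets with fewer than 50 UMIs held 1000645 UMIs, in which Acta2 was at 2841 CPM, Ldb3 at 19.0 CPM (11.4 to 29.7), Xirp1 at 6.00 CPM and Actc1 at 2.00 CPM. Immune cells should lack these genes, and those of the mixed library (median 2234 UMIs) had a UMI of Ldb3 in 6 of 73 cells (8.22%), at 39.9 CPM, beside 1153 CPM of Acta2. In pericyte-like cells of the mixed library (median 6335 UMIs) Ldb3 was at 42.7 CPM and in muscle-like cells at 128.2 CPM. The part of free RNA in the immune and pericyte-like values was not tested.

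Myl7 is the extreme case of unequal spread. Its 34 UMIs in kind C, at 41.1 CPM (28.5 to 57.5), lay in 4 of 74 cells with 18, 11, 3 and 2 UMIs, and 5 UMIs remain outside the top 2 cells. Kind C was at least 18.0-fold above kind A of the same library and at least 4.28-fold above kind B, but the finding rests on those few cells of 1 library. Over the 3 libraries, 5 muscle-like cells held 10 or more UMIs of 1 member. The 2 such cells with Myl7 (11 and 18 UMIs) had 0 UMIs of Actc1, and the 2 kind C cells with 27 and 24 UMIs of Actc1 had 0 of Myl7. All 5 cells held Acta2, with 71 to 494 UMIs, and the sum over 12 cardiomyocyte markers was 0 in the 4 cells of kind C and 2 UMIs in the cell of PLV replicate 1. The sum over 18 myofibre markers was 7 and 3 UMIs in the kind C cells with Myl7, 4 and 6 in those with Actc1 and 1 in the cell of PLV replicate 1.

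**Figure D3:**
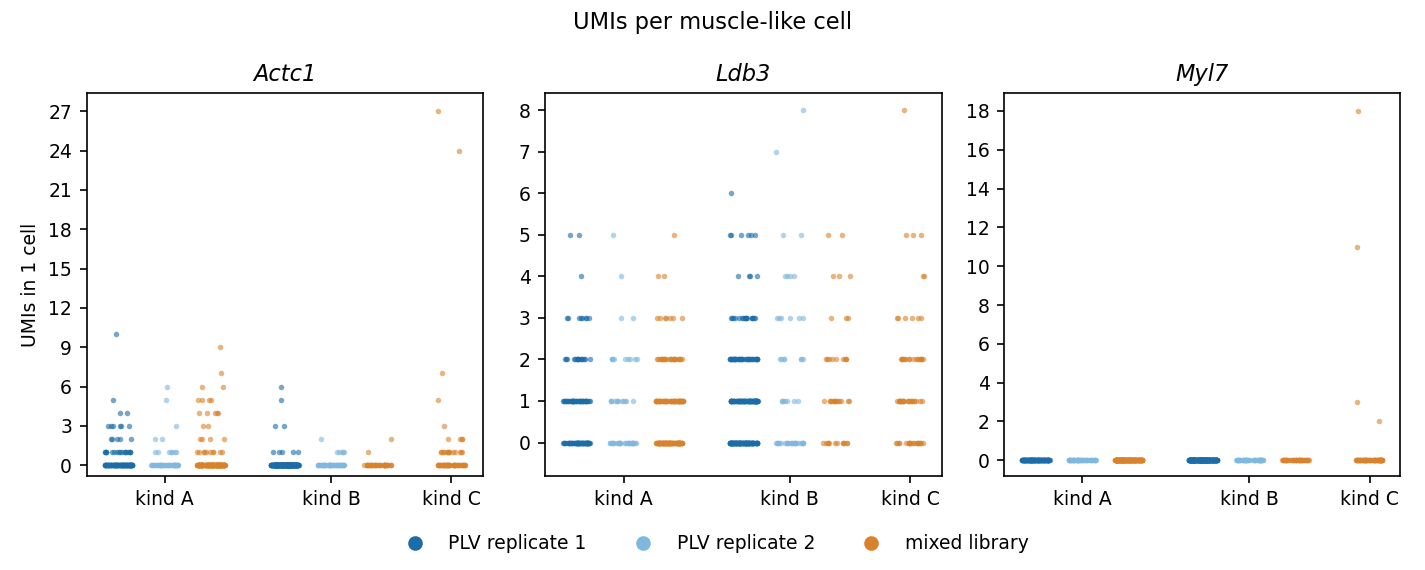
UMIs of Actc1, Ldb3 and Myl7 (vertical axis) in each muscle-like cell, by kind and library (horizontal axis); each point is 1 cell. Ldb3 reaches at most 8 UMIs in many cells, Actc1 reaches 27 and 24 in 2 cells of kind C, and Myl7 is above 0 in 4 cells.

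Most muscle-like cells held at least 1 of the 10 genes. The count was 307 of 417 cells (73.6%), 82 of 107 (76.6%) and 236 of 313 (75.4%), against 6.84%, 5.62% and 8.22% of all other kept cells. At least 2 of the genes were seen in 126 cells (30.2%), 36 cells (33.6%) and 98 cells (31.3%) of the muscle-like class. At 1500 UMIs per cell the shares with at least 1 fell to 38.5%, 31.4% and 29.3%, against 2.87%, 1.67% and 2.77% of the other cells, and those with at least 2 to 4.90%, 1.96% and 4.61%. No muscle-like cell held more than 4 of the 10.

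By kind, at least 1 member was seen in 64.0%, 64.8% and 67.9% of kind A cells, in 78.3%, 88.7% and 88.4% of kind B cells and in 87.8% of kind C cells. Thinned, the shares were 28.6%, 20.4% and 25.7% in kind A, 43.3%, 41.5% and 46.5% in kind B and 28.4% in kind C. Kind B thus stood above kind A in each library at both depths, by way of Ldb3 and Xirp1. Among other classes, lymphatic endothelial-like cells were at 14.1%, 15.5% and 11.3%, mostly through Myl4, pericyte-like cells at 4.44%, 14.8% and 22.4%, and blood endothelial-like cells at 9.49%, 5.00% and 7.47%. Schwann-like cells were at 0.427%, 0 and 0.

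**Figure D4:**
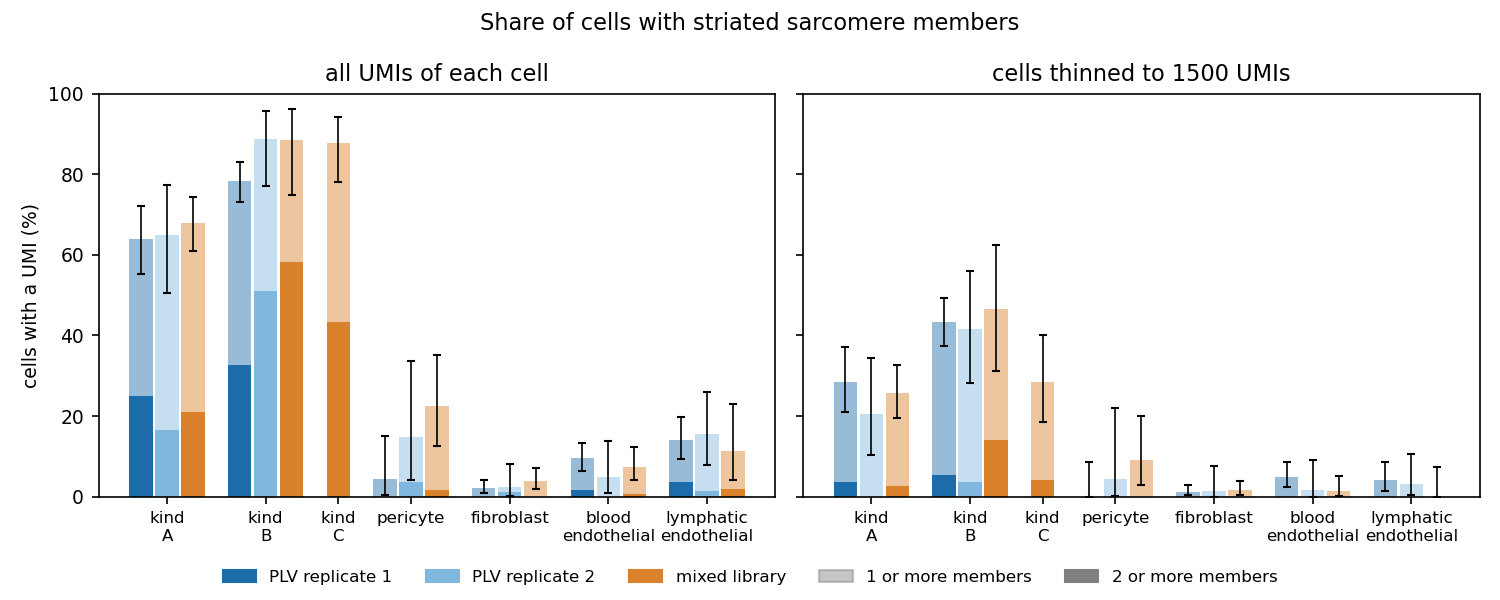
Share of cells (percent, vertical axis) with at least 1 (pale bars, with 95% Clopper-Pearson intervals) and at least 2 (dark bars) of the 10 genes, by class or kind and library, with all UMIs and after thinning each cell to 1500 UMIs. Kind B of the 3 libraries is at 78.3% to 88.7% with all UMIs and at 41.5% to 46.5% after thinning, above kind A in both.

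Co-detection was read as the number of cells with a UMI of both genes beside the number that the product of their shares gives, per library and then summed. Over all muscle-like cells Actc1 and Xirp1 were seen together in 10 cells where 25.9 were given by the product, with 3 against 14.3, 5 against 6.56 and 2 against 5.00 by library. Within kind B the pair was seen in 10 cells against 10.3 given by the product. Tnnt2 and Xirp1 were seen together in 0 cells against 7.49, which restates that neither had a UMI in the kind that held the other. Ldb3 and Xirp1 within kind B were seen together in 123 cells against 120.3, at 80 against 78.8, 20 against 20.6 and 23 against 20.9 in the 3 libraries.

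Within kind A, Actc1 and Ldb3 were seen together in 41 cells against 36.6, Tnnt2 and Ldb3 in 22 against 22.0, and Actc1 and Tnnt2 in 7 against 7.81. Pairs with Myl4 lay above the product: Actc1 and Myl4 in 14 cells against 8.62, Myl4 and Ldb3 in 32 against 23.2, and Tnnt2 and Myl4 in 9 against 5.94. In kind A, cells with Myl4 were deeper than cells without it. The medians were 6316 UMIs against 4144 in PLV replicate 1 and 9092 against 6123 in the mixed library. In the same libraries, cells with Actc1 (6366 against 3962 and 8552 against 6123) and with Tnnt2 (5703 against 4448 and 8027.5 against 6235) were deeper too. The part of depth in the counts of these pairs was not tested. After thinning, Actc1 and Myl4 were seen together in 0 cells of kind A against 0.656, and Myl4 and Ldb3 in 2 against 1.34, too few to show a difference from the product. In kind C, Actc1 and Ldb3 were seen together in 16 cells against 16.5, and Actc1 and Myl7 in 0 against 1.24.

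**Figure D5:**
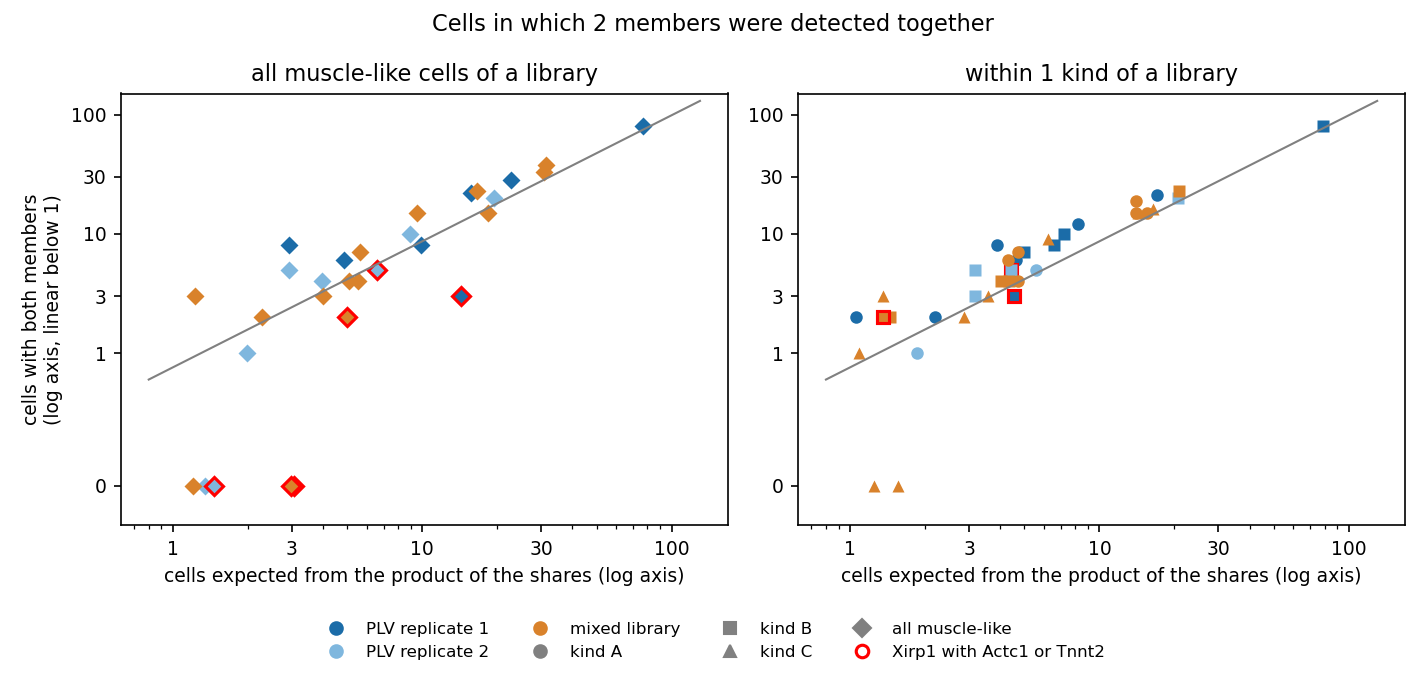
Cells with both genes of a pair (vertical axis) against the number given by the product of the shares (horizontal axis), both on log axes (the vertical one linear below 1), for pairs with a product of at least 1; left, all muscle-like cells, right, within kinds; the line marks equality and red outlines mark Xirp1 with Actc1 or Tnnt2. Actc1 with Xirp1 lies at 10 against 25.9 over all muscle and at 10 against 10.3 within kind B.

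The mixed library was set against the PLV libraries over muscle-like cells as a whole. Of 6 members tested, 4 were higher and 1 lower in the mixed library by edgeR, where 8.65% and 7.79% of all 10789 genes tested were. Actc1 had a log2 fold change of 1.08 (SE 0.25, adjusted p = 0.000774), Tnnt2 1.88 (SE 0.45, adjusted p = 0.00102), Myl4 1.11 (SE 0.34, adjusted p = 0.0152) and Xirp1 -1.92 (SE 0.28, adjusted p = 6.40e-08) in edgeR. Myl7 was called too (adjusted p = 1.93e-06 by edgeR), with 0 UMIs in both PLV libraries, but it passed the filter through the mixed library alone, where 29 of its 34 UMIs lay in 2 cells, and without the cells of 10 or more UMIs of 1 member it was not tested and 3 members were called higher. Ldb3 was at -0.17 (SE 0.24, adjusted p = 0.708 by edgeR). The test takes the spread between the PLV libraries for that of the single mixed library, and vessel, digestion time, enzymes, software version and mice cannot be told apart here. Xist, an RNA of female cells, had 1609, 580 and 1 UMIs in muscle-like cells, and the part of sex in these differences cannot be told apart either. Kind B made up 67.4% and 49.5% of muscle-like cells in the PLV libraries and 13.7% in the mixed library.

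Within 1 kind fewer genes were called overall. In kind A alone 1 of 4 members tested was called, where 5.76% of all genes were: Tnnt2, at 1.34 (adjusted p = 0.0263 by edgeR). In the same fit Actc1 was at -0.06 (adjusted p = 0.941 by edgeR) and Myl4 at 0.52 (adjusted p = 0.556 by edgeR). In kind B alone 0 of 2 members tested were called by edgeR, where 3.05% of all genes were, and 0 were at an unadjusted p under 0.05, with Xirp1 at 0.41 (adjusted p = 0.529) and Ldb3 at 0.40 (adjusted p = 0.529) in edgeR. Over all muscle-like cells DESeq2 called 2 members and lost Actc1, Tnnt2 and Myl4, and it called 1.93% of all genes, where edgeR called 16.4%.

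Other genes of the sarcomere were also split between the kinds. In a list of 59 other sarcomere genes, 13 had enough UMIs, of which 12 were higher in muscle-like cells than in the other classes, 0 were lower and 7 were higher than in pericyte-like cells (edgeR), where 20.5% and 6.99% of all genes tested were higher. Whether a gene reached the test can depend on its UMIs in muscle-like cells, so the counts are a description. Their median log2 fold change against the other classes was 3.63, beside 0.02 over all genes tested. Those with the most UMIs were Myom1, the M-band protein myomesin (7.09), Pdlim3 (5.21) and Pdlim5 (2.29), PDZ and LIM proteins of the Z-disc, Fhl1 (2.28) and Tmod1, which caps the slow end of thin filaments (3.63).

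Between the kinds, 4 of the 13 were higher and 8 lower in kind B by edgeR, where 16.5% and 15.8% of all genes were. The median log2 fold change was -1.51, beside 0.00 over all genes tested, and the same when genes at 0 in a kind were set to their limit. Of the 13, 3 (Tcap, Myh1 and Myh2) had 0 UMIs in 1 of kinds A and B. They passed the filter through the other kind, so these counts are a description. Tcap, the titin cap of the Z-disc, followed Xirp1: it had 121, 25 and 13 UMIs in kind B, 0 in kind A and 2 in kind C. Fhl2, a LIM protein of the heart, ran the other way, at 166.6, 118.9 and 145.7 CPM in kind A and 162.2 CPM in kind C, with 0, 1 and 0 UMIs in kind B. Flnc, the muscle filamin, was at 127.4, 100.1 and 103.0 CPM in kind A and 128.3 CPM in kind C, with 5, 0 and 3 UMIs in kind B. Also higher in kind B were Myom1 (0.77, SE 0.15), Myl1 (2.19, SE 0.26) and Obsl1 (2.28, SE 0.35), and also lower were Fhl1 (-1.94, SE 0.18), Tmod1 (-1.51, SE 0.20) and Pdlim3 (-0.55, SE 0.15), all as log2 fold changes.

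Of 20 regulators of striated and smooth muscle genes, 9 were tested against the other classes, 7 rose above them and 1 was lower in muscle-like cells (edgeR), where 20.5% and 12.6% of all genes were. Myocd, the coactivator of serum response factor, was higher by 7.15 on the log2 scale (SE 0.30) against the other classes and by 2.53 (SE 0.36) against pericyte-like cells. Between kinds, 2 of 8 were higher and 1 lower in kind B, where 16.5% and 15.8% of all genes were, so that these counts were near the background. Mef2c, a transcription factor of heart and vessel muscle, was at 923, 913 and 657 CPM in kind B and at 298, 257 and 253 CPM in kind A, with kind C at 247 CPM, and Mef2d was higher by 1.503 (SE 0.21). Gata6, a transcription factor of heart and smooth muscle, had 76, 25 and 83 UMIs in kind A, 0 in kind B of every library and 9 in kind C. Myocd itself did not pass between the kinds (-0.26, SE 0.16, adjusted p = 0.233 by edgeR).

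The smooth muscle contractile genes served as the reference list. All 18 were higher in muscle-like cells than in the other classes and 14 were higher than in pericyte-like cells (edgeR), where 20.5% and 6.99% of all genes were. All markers by which clusters were named muscle-like are among these 18 genes. The counts against other classes were thus largely set by the naming, and nothing is read from them. DESeq2 called 18 and 9 of them, where it called 35.5% and 11.6% of all genes. Between kinds, 6 were higher and 4 lower in kind B, where 16.5% and 15.8% of all genes were, with a median log2 fold change of 0.17. Cnn1, which encodes calponin, had -1.55 (SE 0.15) and Actg2 -2.81 (SE 0.18), while Tagln, which encodes transgelin, had 0.74 (SE 0.14), so that the smooth muscle list was also split.

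Markers of whole striated muscle cells were counted beside these results. Of 12 cardiomyocyte markers, 8 were at 0 UMIs in all muscle-like cells, among them Myh6, Myh7, Myl2 and Myl3, and the sum was 0 to 5.60 CPM by kind and library. All 6 satellite cell markers were at 0. Of 18 myofibre markers, Pvalb and Tnni2 were at 0 in muscle-like cells and 9 had at most 5 UMIs. Of the 4 myofibre markers with enough UMIs to be tested against the other classes, 3 were higher in muscle-like cells by edgeR (Myl1, Pygm and Myh2, with 284, 275 and 120 UMIs there), where 20.5% of all genes were, and 0 of 4 were called against pericyte-like cells (1 at an unadjusted p under 0.05 by edgeR, 0 with DESeq2). These 3 were named after their values were seen. The myofibre sum was 116 to 194 CPM by kind and library, with Myl1 and Myh2, which separate the kinds, among its genes, and its level in pericyte-like cells was 133 to 141 CPM. The part of other muscle cells in the levels of Actc1, Ldb3 and Xirp1 was not tested.

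The genes whose levels ran most like the members over the 18 sums of library and class were found by Pearson's r of log2(CPM + 10) among 11969 genes, as a description over sums that share libraries and depth. For Ldb3 they were Stum, Pgam2 and Sgca, each at 0.984. For Xirp1 they were Klhl30 (0.984), Pgam2 (0.979) and Sgca (0.974), so that 2 of the 3 were shared with Ldb3. For Actc1 they were BC051019 (0.990), Cnn1 (0.989) and Kcnma1 (0.986). Sgca encodes alpha-sarcoglycan of the muscle membrane, Pgam2 the muscle form of phosphoglycerate mutase and Kcnma1 the pore of the large-conductance calcium-activated potassium channel.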

How the data were processed

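The deposited values were raw UMI counts per gene and cell barcode, made by the authors with Cell Ranger 6.1.2 for the PLV libraries (filtered matrices) and Cell Ranger 4 for the mixed library (unfiltered), per the file headers. The submitters' processing notes name GRCm38 and Seurat. The 10 genes and the lists beside them were chosen with earlier results of these data known, and the markers used to name clusters come from the same earlier work.

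Barcodes with at least 500 UMIs, 300 genes, at most 15% mitochondrial and 20% haemoglobin UMIs were kept, and 10, 3 and 3 predicted doublets were left out, so undetected doublets remain possible. Each library was clustered alone (scanpy 1.11.5, 2000 variable genes, 50 components, 15 neighbours, leidenalg 0.10.2 at resolution 1) without the members, listed genes, tdTomato, sex, mitochondrial and haemoglobin genes. Clusters were named where at least 3 markers were raised 2-fold (prior of 20 CPM) and no other class had more markers among the 10 leading genes. Erythroid markers were left out, macrophage and dendritic markers were joined, and platelet-led clusters stayed unnamed; these choices followed the sight of the clusters. All classes and kinds are rebuilt here and may differ from those of the study.

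UMI sums per library and class were tested with edgeR 4.0.16 in R 4.3.3 (TMM, filterByExpr, quasi-likelihood test, Benjamini-Hochberg over all genes, threshold 0.05), with library as a block except for the mixed library against PLV. DESeq2 1.42.0 was the alternative tool. SEs are the size of the log2 fold change over the square root of the test statistic F. The PLV replicates are separate pools of mice. On simulated counts with 200 genes changed 4-fold, edgeR recovered 96% for muscle-like against other classes, 71% against pericyte-like cells, 97.5% for the kinds and 88% for the mixed library against PLV. Unchanged genes called numbered 18, 6, 12 and 12. The changed genes were drawn from all genes tested and the simulation held no differences between libraries. The shares recovered thus do not describe genes with few UMIs, as most members are. All 10 members are reported. From the other lists, the called genes with the most UMIs are named, at most 5 per list and direction. Gene IDs matched GENCODE M21 for 32235 of 32286 features, and promoter windows come from RefSeq.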

Additional observations from a re-analysis of the deposited data

How the results depend on the processing

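Of 220 repeats of the tests of single members, 186 kept their direction and their side of the threshold, 29 lost the call and 5 changed sign. Members called against the other classes numbered 4 of 4 tested, where 3472 of 10494 genes were called by edgeR. They numbered 6 of 9 with no filter on low counts (3880 of 19374 genes) and 5 of 5 against fibroblast-like sums only (3329 of 10306). DESeq2 gave 2 (3724 of 10494) and Leiden resolution 0.5 gave 3 (2948 of 10299), where Xirp1 was lost. Leaving out PLV replicate 1 gave 3 (2318 of 10146), with Myl4 not tested. Leaving out PLV replicate 2 or the mixed library gave 4 each (2600 of 11892 and 3223 of 10473). No replicate block gave 4 (2661 of 10494). Against pericyte-like cells the 4 calls became 5 of 9 with no filter on low counts, 0 with DESeq2 and 2 at 1000 or more UMIs per cell. They became 1 at Leiden resolution 0.5, 1 to 3 without each library in turn and 3 with no replicate block. Over all genes 1292 of 10494 were called in the main fit by edgeR. This was 1627 of 19374 with no filter on low counts and 1220 of 10494 with DESeq2. By edgeR it was 980 of 10451 at 1000 or more UMIs, 619 of 10299 at resolution 0.5 and 888 of 10494 with no block. Xirp1 changed sign against pericyte-like cells at resolution 0.5 (-1.95, adjusted p = 0.601 by edgeR). At that resolution the muscle-like class of PLV replicate 1 held 154 cells, against 417 at resolution 1. Between the kinds 4 calls became 3 to 4 in every setting run, and with no replicate block Ldb3 was lost. Over all genes 2285 of 7063 were called between the kinds in the main fit by edgeR and 1287 of 7063 with DESeq2. Between the mixed library and PLV, 5 calls became 2 with DESeq2, 0 at resolution 0.5 (2 at an unadjusted p under 0.05 by edgeR), 1 in kind A alone, 0 in kind B alone and 4 without the 5 cells of 10 or more UMIs of 1 member, where Myl7 was no longer tested and Actc1 was at 0.75 (adjusted p = 0.0349 by edgeR). Signs changed for Ldb3 at 1000 or more UMIs (0.0154, adjusted p = 0.976), for Actc1 in kind A alone (-0.0627, adjusted p = 0.941) and in kind B alone for Xirp1 (0.41) and Ldb3 (0.40), by edgeR. At resolution 0.5 few of all genes tested were called between the mixed library and PLV, so the 0 there is not particular to the members. The share of muscle-like cells of PLV replicate 1 with at least 1 member, 73.6%, was 64.0% at 1000 or more UMIs and 58.4% at resolution 0.5. That with at least 2, 30.2%, was 21.5% and 22.1%. Thinned to 1500 UMIs, the shares with at least 1 were 38.5%, 31.4% and 29.3% in the 3 libraries and those with at least 2 were 4.90%, 1.96% and 4.61%. The alternatives without the 5 cells, in kind B alone and for the cell shares, other than thinning, were chosen after seeing the data. The kinds at resolution 0.5 and the comparison of the mixed library with PLV without a PLV replicate, which leaves no residual degrees of freedom, were not run. The cause of these changes was not tested. The filter on low counts left Tnnc1 and Ttn out of the tests in all 4 comparisons, and Smyd1 had no UMI.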

Other observations

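Other genes of the sarcomere list were also set between the mixed library and the PLV libraries in muscle-like cells. Over the 19 tested, the median log2 fold change was 0.41 by edgeR, beside -0.002 over all genes tested. The mixed library is 1 sample, so these values describe that library only. Ankrd1, a stress-responsive ankyrin repeat protein of the heart, had 52 UMIs in kind C (62.9 CPM) and 17 in kind A of the mixed library, against 7 in PLV replicate 1 and 2 in PLV replicate 2. Fhl2 (log2 fold change 1.56, SE 0.24), Flnc (1.45, SE 0.25), Cmya5 (1.86, SE 0.36) and Myh2 (1.28, SE 0.33) were higher too, and Tcap (-2.69, SE 0.37), Obsl1 (-1.32, SE 0.34) and Synpo2l (-2.55, SE 0.93) were lower. Fhl2, Flnc and Myh2 were lower and Tcap and Obsl1 higher in kind B than in kind A, and the libraries differ in their shares of the kinds. Tnnc2, the fast skeletal troponin C, was picked out after its values were seen: 66 UMIs lay in kind C (79.9 CPM), 3 in kind B and 0 in kind A of the mixed library, and 2 in all muscle-like cells of the PLV libraries.

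Among the regulators, Hand2, a transcription factor of the developing heart, had 53 UMIs in kind C (64.1 CPM), 4 in kind B and 0 in kind A of the mixed library, and 3 and 7 UMIs in kind B of the PLV libraries. Kind C, in which most UMIs of Myl7, Ankrd1, Tnnc2 and Hand2 in muscle-like cells lay, comes from 1 library, so none of these differences has a replicate.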
